A study of Homo sapiens with 3 samples.

Results

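The NME genes encode the nucleoside diphosphate kinase family, and 7 of them (NME1, NME2, NME3, NME4, NME5, NME6 and NME8) were examined on the 3 arrays. Members were all probe sets of the array annotated to these genes, chosen by gene name and not by signal. Each of the 7 genes had 1 probe set, so the family made up 7 of the 11964 genes that had a probe set. A probe set is the group of short oligonucleotides whose combined brightness, the signal, measures 1 transcript. The probe set of NME2 is annotated to the NME1-NME2 read-through as well, a transcript that runs from the first gene into the second. NME7 was not analysed here.

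All 3 arrays came from CAL 27, a cell line established from a tongue tumour, a squamous cell carcinoma graded G3 (poorly differentiated), and the labels describe each transfection as stable. The vector cells carried pEGFPC1, a plasmid for green fluorescent protein (EGFP), without an insert. The nm23-H1 cells carried the plasmid with nm23-H1, the older name of NME1, and made a fusion of EGFP with Nm23-H1. The nm23-H2 cells carried the plasmid with nm23-H2, the older name of NME2. All groups therefore contained the EGFP plasmid, and untransfected cells were not analysed here. The series text speaks of 1 vector clone and of clones, with no number, for nm23-H1. Each group had 1 array, so values have no replicates and no p-value was computed, and a difference between arrays is at once a difference between constructs, between transfected lines and between hybridisations. These cannot be told apart.

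Nucleoside diphosphate kinases move the terminal phosphate of a nucleoside triphosphate, usually ATP, onto a nucleoside diphosphate by way of a phosphorylated histidine in the enzyme. In this way they maintain the supply of GTP, CTP, UTP and the deoxynucleotides that DNA synthesis uses. NME1 and NME2 encode the abundant cytosolic subunits, which assemble into mixed hexamers, and NME1 is known as the founding metastasis suppressor gene. NME4 and NME6 encode mitochondrial members, NME3 a member found at the mitochondrial surface, and NME5 and NME8 members linked to sperm flagella and motile cilia.

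The labelled cell type was checked first. Of 14 squamous epithelial markers, 11 had a probe set annotated to no other gene. All 11 were above the floor on every array. The floor was 28.3 signal units, the median of all scaled signals, below which values were not ordered. Of 7 fibroblast markers, 0 passed it on the vector array and 1 on each of the other arrays. Leukocyte markers above the floor numbered 2, 3 and 1 of 7 on the vector, nm23-H1 and nm23-H2 arrays, and endothelial markers 1, 1 and 0 of 5. PTPRC, which defines leukocytes, and COL1A1 and VWF, markers of fibroblasts and endothelium, were below the floor on all 3 arrays. Markers of these lists that passed it on some array were COL1A2 (fibroblast), CD3D, CD3E, CD14 and HLA-DRA (leukocyte) and PECAM1 (endothelium). The highest of these signals was CD3E with 58 units on the nm23-H1 array. Summed signals on the vector, nm23-H1 and nm23-H2 arrays were 34173, 28949 and 44656 units for the squamous markers, 64.6, 98.1 and 103 for the fibroblast markers, 138, 182 and 97 for the leukocyte markers and 54.7, 85.9 and 53.6 for the endothelial markers. Their part in the values below was not tested.

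The positions of the family and the start regions of NME1 and NME3 are given from RefSeq (assembly GRCh38.p14). NME1 lies on chromosome 17 from 51153559 to 51162168 and NME2 follows it from 51165536 to 51171744, with 3367 bases between them. The read-through spans both genes, from 51153559 to 51171744. NME3 (1770320 to 1771543) and NME4 (396729 to 400754) both lie on chromosome 16, NME6 on chromosome 3 (48287640 to 48301367), NME5 on chromosome 5 (138115175 to 138139428) and NME8 on chromosome 7 (37848597 to 37900397). The 250 bases before the start of NME1 are shown because the read-through starts there as well, with the identical window, so transcripts of that start can reach the probe set counted as NME2. The 250 bases before NME3 are shown because it is the member with a large difference that neither construct carries. Capitals mark matches on either strand to the CCAAT box (CCAAT), the GC box (GGGCGG), the E-box (CACGTG) or the TATA box (TATAAA), and overlapping matches were counted separately.
NME1 and NME1-NME2, chr17:51153309-51153558, plus strand: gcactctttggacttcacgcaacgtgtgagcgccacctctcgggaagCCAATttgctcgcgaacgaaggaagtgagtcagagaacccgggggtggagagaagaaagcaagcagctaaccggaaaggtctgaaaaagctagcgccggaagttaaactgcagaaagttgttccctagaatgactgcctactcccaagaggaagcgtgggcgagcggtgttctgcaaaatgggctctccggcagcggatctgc
NME3, chr16:1771544-1771793, minus strand: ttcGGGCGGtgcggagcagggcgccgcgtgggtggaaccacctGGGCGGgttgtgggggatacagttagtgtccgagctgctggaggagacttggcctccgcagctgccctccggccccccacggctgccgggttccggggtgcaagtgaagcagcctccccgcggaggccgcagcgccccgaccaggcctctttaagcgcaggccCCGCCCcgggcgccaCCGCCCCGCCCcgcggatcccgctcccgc
The NME1 window held 1 CCAAT box and no other match. The NME3 window held 5 GC boxes, 3 of them as the reverse complement, and its bases were 75.2% G or C against 55.2% in the NME1 window. NME2 has 3 start windows of its own, not printed, which held 1, 3 and 4 GC boxes at 59.2%, 68.8% and 77.6% G or C. The window of NME4 held 6 GC boxes and 1 CCAAT box, so the NME3 window was not alone in the family in holding several GC boxes. Among 35116 RefSeq windows of the same length, 32% held a CCAAT box, 42.6% a GC box, 6.34% an E-box and 10.7% a TATA box. A match describes the letters only, and its part in the signals was not tested.

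Each of the transfected genes had its highest signal on the array of its own construct. NME1 gave 1519 signal units on the vector array, 2379 on the nm23-H1 array and 1132 on the nm23-H2 array. The nm23-H1 array was the highest and the nm23-H2 array the lowest. NME2 gave 2272 units with the vector, 2323 with nm23-H1 and 4845 with nm23-H2. Its vector and nm23-H1 signals were close together, and the nm23-H2 signal stood above both.

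**Figure D1:**
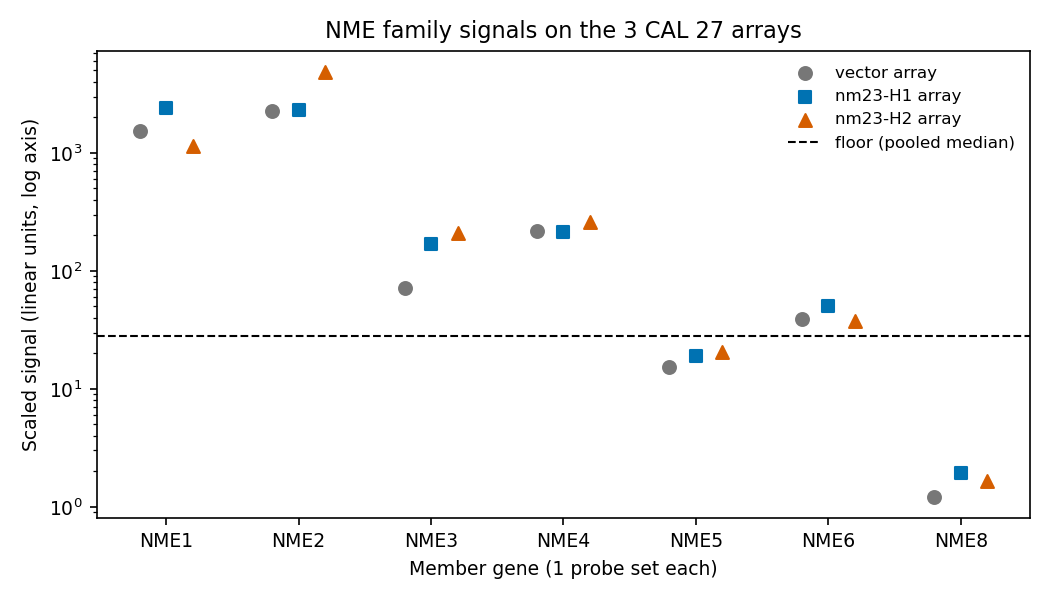
Scaled signal (log axis, linear signal units) of the 7 NME probe sets on the vector (circles), nm23-H1 (squares) and nm23-H2 (triangles) arrays, 1 array each, with the floor of 28.3 units as a dashed line. NME1 is highest on the nm23-H1 array, NME2 on the nm23-H2 array, and NME5 and NME8 lie below the floor throughout. Heights are compared between arrays within a gene, not between genes, since probe sets differ in brightness.

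The precision of these differences could be judged only from how well 2 probe sets of the same gene agreed. Genes with more than 1 probe set were divided by brightness, and NME1 and NME2 fell in the brightest class. There the probe disagreement was 0.26 in the comparison of nm23-H1 with vector (586 genes) and 0.29 in that of nm23-H2 with vector (547 genes). It is the SD of the gap between the log2 differences of the 2 probe sets, divided by the square root of 2. This division scales it to a single probe set, and the undivided gap between 2 probe sets is wider. The probe disagreement covers neither separate cultures nor separate hybridisations. The NME1 difference of 0.65 with nm23-H1 (1.57-fold) was 2.5 of these SDs, and 1012 of the 8001 genes above the floor on at least 1 array, or 12.6%, differed by as much in either direction. The NME2 difference of 1.09 with nm23-H2 (2.13-fold) was 3.8 SDs, and 5.57% of genes differed by as much. So the transfected NME2 stood further out among all genes than the transfected NME1 did, each on its own array.

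The other gene of the pair behaved differently on each array. NME2 differed by 0.03 from the vector with nm23-H1, 0.12 of the SD, while NME1 differed by -0.42 with nm23-H2, or 1.5 SDs. The NME1 value depends on how the arrays are scaled, since it was -0.10 with the signals as deposited and -0.51 after quantile normalization. As deposited, the all-gene median itself was 0.17 for nm23-H2 against vector, and NME1 stood at -0.27 relative to that median. Both genes are paralogs with closely similar coding sequences, and whether their probes bind each other's transcript, or lie within the transfected sequences, was not tested. Each probe set was higher than the vector with its own construct. With the other construct, NME2 was at 1.02-fold of the vector (nm23-H1 array) and NME1 at 0.745-fold (nm23-H2 array).

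The ratio of NME2 to NME1 within an array does not depend on the overall scaling. It was 2.86-fold higher on the nm23-H2 array than on the vector array (1.52 log2) and 1.53-fold lower on the nm23-H1 array (-0.61 log2). Between the nm23-H1 and nm23-H2 arrays it differed 4.38-fold (-2.13 log2). Quantile normalization, which reshapes the bright end of each array, gave -0.58, 1.42 and -2.00 for the comparisons of nm23-H1 with vector, nm23-H2 with vector and nm23-H1 with nm23-H2. These ratios show unequal change of the genes of the pair, not which of them moved.

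NME3, carried by neither construct, was the member with the largest difference from the vector on both arrays. It gave 71.2 signal units with the vector, 170 with nm23-H1 and 209 with nm23-H2. Both transfectants were above the vector, by 1.26 (log2; 2.39-fold) and 1.55 (2.94-fold), and they differed from each other by -0.30, or 0.74 of the probe disagreement SD of 0.40 at that brightness. Against vector the differences were 3.8 and 4.3 SDs. Only 148 of 8001 genes (1.85%) differed by as much in either direction with nm23-H1, and 116 (1.45%) with nm23-H2. Both comparisons use the same vector array, so a low vector signal would raise both. Under the 6 other scalings and floors the difference was between 1.09 and 1.37 with nm23-H1 and between 1.37 and 1.88 with nm23-H2. The probe set ends in _s_at, a name given to sets whose probes can match more than 1 transcript.

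**Figure D2:**
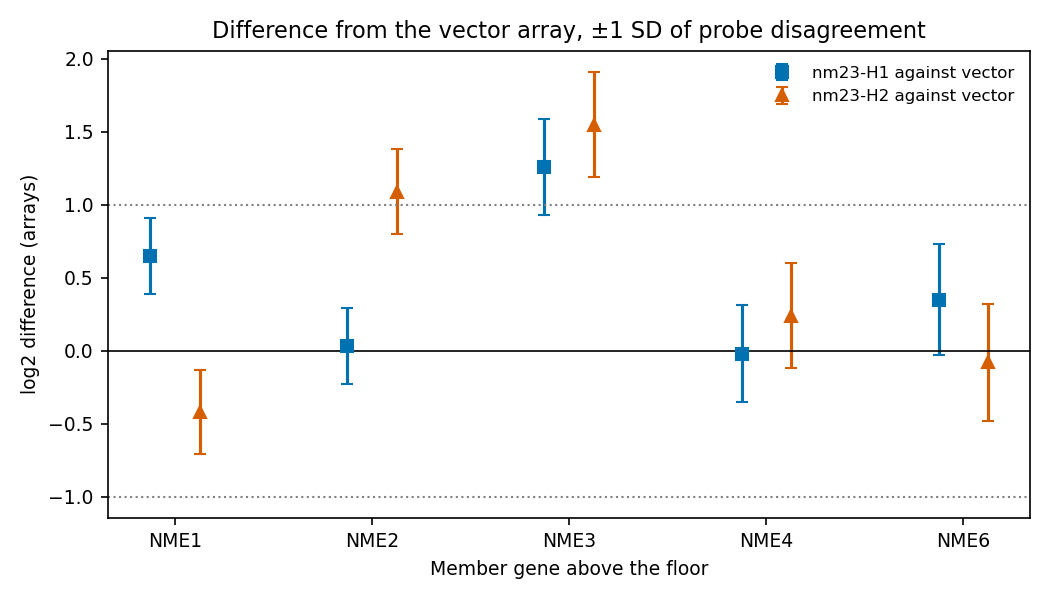
log2 difference from the vector array for the 5 NME genes above the floor, for nm23-H1 (squares) and nm23-H2 (triangles). Bars are ±1 SD of the probe disagreement of equally bright genes, scaled to a single probe set, with 1 array per group. Dotted lines mark 2-fold. NME3 lies above 2-fold in both comparisons and NME2 with nm23-H2.

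NME4 and NME6 differed little. NME4 gave 218 signal units with the vector, 215 with nm23-H1 and 258 with nm23-H2, differences of -0.02 and 0.24 from the vector. Both were under the probe disagreement SD of 0.33 and 0.36 at that brightness. The first kept its sign under 4 of 6 other scalings and floors, and the second ranged from 0.16 to 0.57, the highest with the signals as deposited. NME6 gave 39.3, 50 and 37.2 units on the same arrays, at most 1.77 times the floor. Its differences of 0.35 and -0.08 lay within the SD of 0.38 and 0.40 for dim genes, and the second turned to 0.25 with the signals as deposited and to 0.09 after quantile normalization.

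The members of cilia and flagella were not measurable. NME5 gave 15.3, 18.9 and 20.5 units and NME8 gave 1.22, 1.95 and 1.67 units on the vector, nm23-H1 and nm23-H2 arrays, all below the floor, so neither is assigned a difference. Of the 25 genes of motile cilia listed beside them, 13 had a probe set, and 2, 1 and 4 of those were above the floor on the vector, nm23-H1 and nm23-H2 arrays. Of all probe sets, 50.9%, 51.6% and 47.4% were above the floor on these arrays. The listed cilia genes above it were CCDC40 on all 3 arrays (41.4, 47.3 and 35.5 units) and ZMYND10 on the vector (29.9) and nm23-H2 (55.6) arrays. DNAH9 (30.2) and SPAG16 (28.7) passed it on the nm23-H2 array alone. FOXJ1, the regulator of ciliated cells, and DNAI1, a dynein chain of the cilium, were below it on all 3, at no more than 7.08 and 12.6 units.

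Of the 5 members above the floor, 1 was at least 2-fold different from the vector with nm23-H1 (NME3) and 2 with nm23-H2 (NME2 and NME3). Over all 8001 genes 3.87% and 7.17% were. Between nm23-H1 and nm23-H2, NME1 (1.07) and NME2 (-1.06) were past 2-fold, against 7.49% of all genes. NME1 and NME2 are the genes that the constructs carry. The median difference of the 5 was 0.35 with nm23-H1 and 0.24 with nm23-H2, beside 0.00 and -0.06 over all genes. NME2 fell short of 2-fold with nm23-H2 after quantile normalization (0.91), while NME3 stayed past it under all 6 other scalings and floors in both comparisons with vector.

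**Figure D3:**
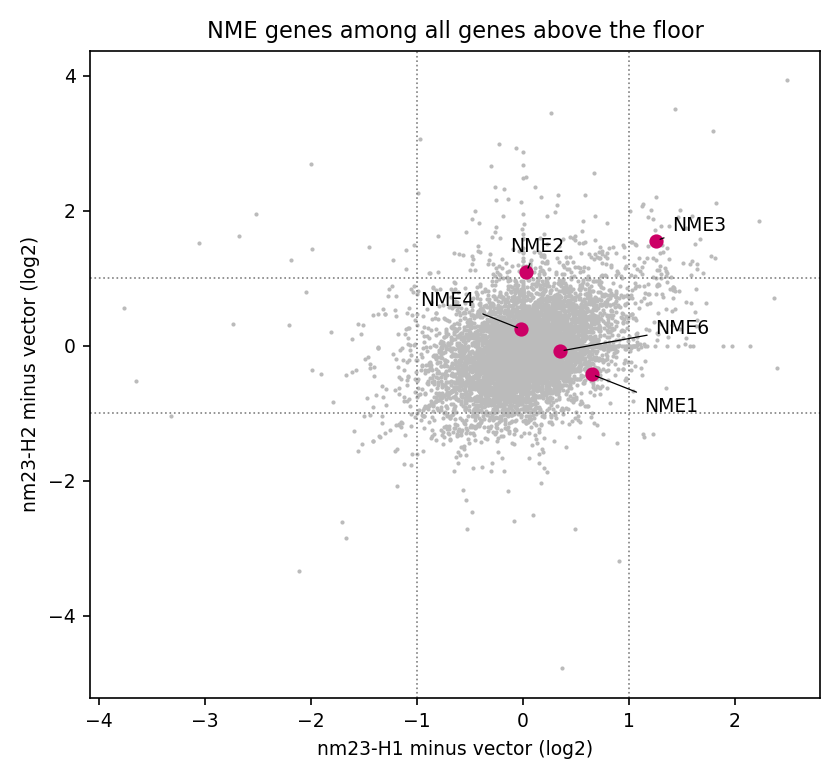
Each grey point is 1 of the 8001 genes above the floor on at least 1 array, placed by its log2 difference from the vector array with nm23-H1 (horizontal) and with nm23-H2 (vertical), and the 5 measured NME genes are marked. The vector array enters both axes, dotted lines mark 2-fold, and NME3 at 1.26 and 1.55 lies in the upper right, away from most genes, while NME1, NME4 and NME6 lie inside the cloud.

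Genes beside the members on their chromosomes were set beside them. None of the 20 measured genes nearest to NME3, 10 on each side, was 2-fold different in any of the 3 comparisons. Over all genes 3.87% were with nm23-H1, 7.17% with nm23-H2 and 7.49% between nm23-H1 and nm23-H2. Counts among 19 or 20 genes are too few to read against these shares. The median of the 20 around NME3 was 0.14 with nm23-H1 (highest 0.90) and 0.34 with nm23-H2 (highest 0.82). NME3 lay above all 20 in both comparisons with vector. Over all genes the medians were 0.00 and -0.06. Around NME4 on the same chromosome the medians of 19 genes were 0.17 and 0.25, and 0 were past 2-fold. The medians around NME3 and NME4 thus lay above those over all genes, and the cause was not tested. The 19 genes around NME1 and NME2 had a median of 0.00 with nm23-H1. With nm23-H2 it was -0.09 around NME1 and -0.16 around NME2. ANKRD40 was higher in both (1.30 and 1.06), ABCC3, a drug transporter, was higher with nm23-H2 (1.10), and EPN3, an endocytic epsin, was lower with nm23-H2 (-1.5). With nm23-H2 the neighbours of NME2 ranged from -1.5 to 1.10, and only ABCC3 lay above NME2 at 1.09. The vector signal of ABCC3, 9.96 units, was below the floor and was set to it, so its 1.10 depends on the floor. The next highest neighbour was ANKRD40 at 1.06. Around NME6, CDC25A, a phosphatase that drives the cell cycle, was lower with nm23-H2 (-1.14) and TMA7 was higher (1.07) among 20 genes.

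**Figure D4:**
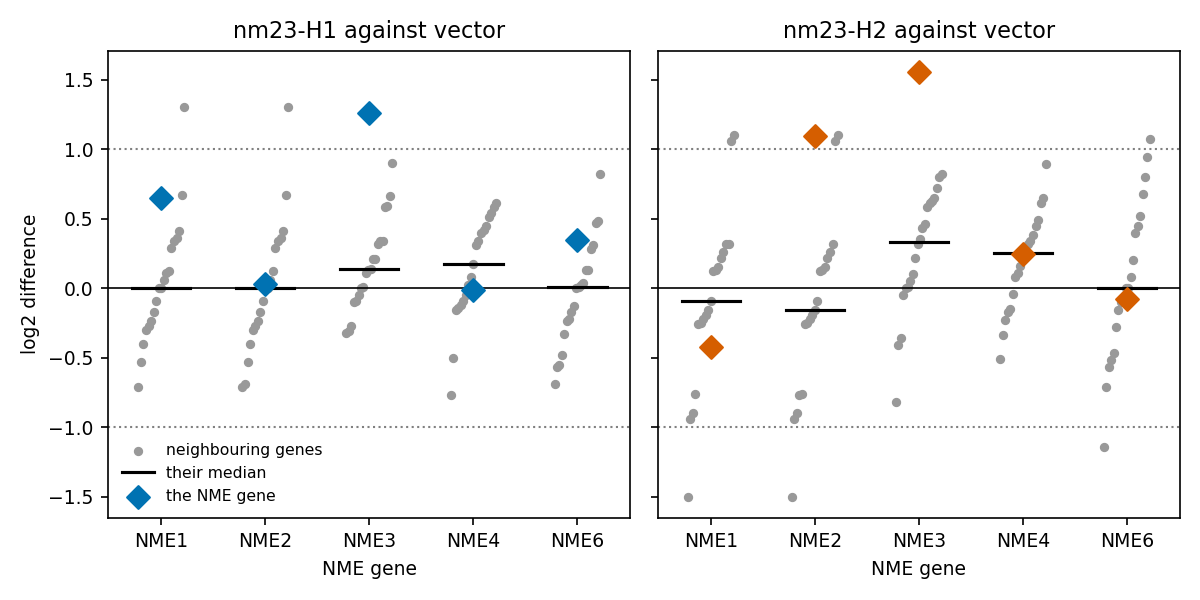
log2 difference from the vector array of each measured NME gene (diamond) and of the genes nearest to it, up to 10 on each side (grey points, ordered by value, with their median as a bar), for nm23-H1 (left) and nm23-H2 (right). NME3 lies above all 20 of its neighbours in both panels, whereas NME4 and NME6 lie among theirs.

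The genes with the most similar pattern were sought among genes above 66.2 units on all arrays, by the distance between their pairs of differences from the vector. Over 3 arrays such a likeness is weak, and many genes met it. For NME1, 47 of 3742 genes lay within 0.25, the nearest being RNF10 (0.68 with nm23-H1 and -0.48 with nm23-H2), SLC39A1 (0.60 and -0.38) and DHRS3 (0.73 and -0.43). For NME2 there were 41, led by SEL1L (0.01 and 1.10), NCAPH2 (0.01 and 1.11) and PPP4R1 (0.04 and 1.05). For NME3 there were 5, and the nearest were BAG1 (1.31 and 1.49), STOML2 (1.32 and 1.38) and JAG1 (1.06 and 1.5). BAG1 and STOML2 lie on chromosome 9 and JAG1 on chromosome 20. NME4 had 656 genes within the same distance, nearest GPI, TALDO1 and TRIM28, and NME6 had 413 of 3743, nearest TBC1D10B, CDK13 and FAF2.

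Kinases of nucleosides and of nucleoside monophosphates showed a single gene past 2-fold. Of 21 nucleoside and nucleoside monophosphate kinases, 13 had a probe set and 10 were above the floor, and 1 was at least 2-fold higher and 0 lower in each comparison with vector. Over all genes 3.87% were past 2-fold with nm23-H1 and 7.17% with nm23-H2, so 1 gene among 10 does not set the list apart. The gene was DTYMK, thymidylate kinase, which makes the dTDP that NME enzymes turn into dTTP. DTYMK gave 72.1 signal units with the vector, 187 with nm23-H1 and 176 with nm23-H2. Both transfectants were above the vector, by 1.37 and 1.29 (2.59-fold and 2.44-fold), and this held under all 8 other settings, where it ranged down to 1.12. The other 9 lay between -0.76 and 0.60. The median of the 10 was 0.08 with nm23-H1 and -0.14 with nm23-H2. The latter was 0.19 with the signals as deposited, beside 0.17 over all genes.

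Genes that set nucleotide pools or hydrolyse nucleotides gave a like count. Of 23, 18 passed the floor on some array, with 1 higher and 0 lower in each comparison with vector and medians of 0.05 and 0.12. Beside the all-gene shares of 3.87% and 7.17%, 1 gene among 18 does not set this list apart either. With the signals as deposited the medians were 0.18 and 0.45, beside 0.08 and 0.17 over all genes, and 2 genes were higher with nm23-H2. The gene past 2-fold in both comparisons with vector was ENTPD6, an enzyme that hydrolyses nucleoside diphosphates and triphosphates. Genes beside ENTPD6 on its chromosome were not examined here. ENTPD6 gave 37.4 units with the vector, 175 with nm23-H1 and 134 with nm23-H2. The vector array was the lowest by 4.67-fold and 3.59-fold. Its lowest differences over the alternatives, 1.40 and 1.02 (log2), came from raising the floor to the 70th percentile. The subunits of ribonucleotide reductase, which makes deoxynucleoside diphosphates, differed by -0.19 (RRM1) and 0.04 (RRM2) with nm23-H1 and by 0.14 and -0.36 with nm23-H2, values named for their role rather than their size.

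Proteins reported to bind Nm23, or to be phosphorylated by it, had medians below 0 in both comparisons with vector. Of 25 such genes, histidine phosphatases included, 19 were above the floor. With nm23-H1 0 were 2-fold different and the median was -0.20. With nm23-H2 2 were at least 2-fold lower and 0 higher, and the median was -0.34 beside -0.06 over all genes. The all-gene shares past 2-fold were 3.87% with nm23-H1 and 7.17% with nm23-H2, and 2 genes among 19 are too few to read against them. With the signals as deposited the medians were -0.05 and -0.01, beside 0.08 and 0.17 over all genes. In that setting 0 genes of the list were past 2-fold in either comparison. The lower genes were HMGB2, a chromatin protein of the SET complex, with 102, 91.0 and 50.4 units on the vector, nm23-H1 and nm23-H2 arrays (-1.02 with nm23-H2), and AURKA, a mitotic kinase, with 436, 329 and 197 units (-1.14). HMGB2 fell short of 2-fold under 4 of 7 alternatives, and AURKA differed by -0.95 and 0.20 in its other probe sets, the latter close to the floor. MYC, whose promoter Nm23-H2 has been reported to bind, gave 290 units with the vector, 197 with nm23-H1 and 284 with nm23-H2. Its difference was -0.55 with nm23-H1 and -0.03 with nm23-H2, so the MYC signal of the nm23-H2 array was close to that of the vector, and MYC was named for its role.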

How the data were processed

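Signals of 22283 probe sets were taken from the deposited table, in which the authors give linear intensity values. These were made with MAS5 per the submitters' processing notes, and the version, scaling target and detection calls are not given in the sources used here. RNA was amplified in a single cycle and biotin-labelled, per the labels. Each array was multiplied (vector by 1.11, nm23-H1 by 1.03, nm23-H2 by 0.881) to a common mean between the 2nd and 98th percentiles, and values below the pooled median (28.3) were set to it before the log2 transform. A gene was represented by its brightest probe set, those ending in _x_at only where it had no other. Probe sets with several symbols (1042) or none (2169) were left out, except that of NME2. A gene whose probe sets were all left out in this way was counted as having none. Genes past 2-fold were counted. Members, gene lists and settings were chosen with earlier results of these data known. Named genes were all members, up to 3 list genes past 2-fold against vector, and the 3 nearest patterns. Genes neighbouring a member are the 10 measured ones on each side, other members left out. The steps were run on simulated data made from the vector signals, with planted fold changes and noise the size of the probe disagreement. Such data hold no variation between cultures, clones or hybridisations. Python 3.11.15, numpy 2.4.6, pandas 2.3.3 and matplotlib 3.10.9 were used.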

Additional observations from a re-analysis of the deposited data

Results flagged for a closer look

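NME1 was picked out because its differences from the vector had opposite signs in the transfectants, 0.65 with nm23-H1 and -0.42 with nm23-H2. Each was larger than the probe disagreement scaled to a single probe set, 0.26 and 0.29 at that brightness. The undivided gap between 2 probe sets is wider, and the differences were not compared with it. With the signals as deposited the nm23-H2 difference was -0.10, within the scaled value. The arrays of the transfectants differed by 1.07 (log2). With 1 array each this difference was not tested.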

How the results depend on the processing

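Under 6 other scalings and floors (5 for NME6) the differences of the 5 measured members moved by less than the probe disagreement of equally bright genes, except for nm23-H2 against vector with the values as deposited, where NME1 was at -0.10 and NME2 at 1.42. Counts of members past the threshold moved more. With a 1.5-fold threshold 2 members passed for nm23-H1 against vector, and 0 with probe sets specific by name (plain _at), which leave out NME3 and NME4. For nm23-H2 against vector 1 passed after quantile normalization and 1 with probe sets specific by name. For nm23-H1 against nm23-H2 1 passed with the values as deposited (NME2), and 1 with a common median and 1 after quantile normalization (NME1). Over all genes the counts for nm23-H1 against vector, nm23-H2 against vector and nm23-H1 against nm23-H2 were 310, 574 and 599. They became 1175, 1610 and 1718 when the 25th percentile was the floor, 131, 301 and 304 when the 70th was, 1287, 1985 and 2140 at 1.5-fold, and 185, 332 and 349 with plain _at probe sets alone. The share of these genes that was higher was 55.8%, 49.5% and 49.9%, and 69.7%, 85.4% and 25.8% with the values as deposited. With a common median the second and the last were 38.8% and 61.6%. AURKA was at 0.20 for nm23-H2 against vector with probe sets specific by name. Causes were not tested, beyond the fewer genes that a higher floor or specific probe sets leave. No array could be left out and no second probe set compared for a member, since there was 1 of each. No paired analysis was possible because each group had 1 array.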
